A study of Rattus norvegicus with 24 samples.

Results

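The tumour necrosis factor (TNF) ligand and receptor superfamilies were described in rat brain after a stab wound. Members were taken by name from the table of gene counts: every Tnfsf or Tnfrsf symbol followed by a number, and Tnf, Lta, Ltb, Ltbr, Fas, Faslg, Cd40, Cd27 and Cd70, leaving out numbered copies of a symbol. This gave 38 of the 29539 genes in the table, 15 ligands and 23 receptors. Cd40lg, Tnfsf13b, Tnfrsf23 and Eda2r were not analysed here.

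Poly(A)-selected RNA of 24 rat brain samples was sequenced, 8 in each of 3 groups. The SKF group received SKF-81297, an agonist of D1-like dopamine receptors, by intraperitoneal injection once a day for 3 days, the first dose 1 h after the injury. The injury model is a forebrain stab wound. The Vehicle group is taken here as wounded and given the solvent, which follows from the design text, since its labels hold that word alone. The Normal Control group is named so, with no mention of a sham operation. The labels give no strain, sex, age, brain region or time of sampling, and leave unsaid whether each of the 8 libraries in a group is from a separate animal. The p-values therefore measure the spread between samples, which may be partly technical.

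Ligands of this superfamily are mostly trimers held in the membrane, and several are shed as soluble cytokines. Their receptors divide by the cytoplasmic tail. Death-domain receptors such as Tnfrsf1a and Fas recruit adaptors that lead to caspase activation or to NF-κB, and the others bind TRAF adaptors that signal to NF-κB and kinases. In injured brain TNF is known as an early product of microglia and of leukocytes that enter the tissue.

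Total counts per library ran from 8911339 to 12383368. Neuron markers were present in every library, with 1642 to 3467 summed CPM (counts relative to a library total scaled by the trimmed mean of M-values, TMM) over 4 genes. Normal Control 4 held 1968 CPM of 4 skeletal muscle genes, against 8.32 to 17.1 CPM in the other Normal Control libraries. Normal Control 6 stood apart on the second principal component of all genes tested. Without both libraries the same numbers of family members passed the test, 14 for SKF against Normal Control and 15 for Vehicle against Normal Control.

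Of the 38 members, 22 passed the filter on low counts, 7 ligands and 15 receptors, and 16 fell under it. The filter keeps a gene that reaches the minimum in at least 8 of the 24 libraries, whichever group they are in. A gene that passed only through the groups where it is high was bound to differ, so counts over the 22 are a description. Several members that rose had few counts over the 8 Normal Control libraries. These were Tnf (34), Fas (57), Cd40 (67), Tnfrsf26 (68), Tnfrsf9 (70), Ltb (73) and Tnfsf9 (76). Their p-values and their separation from Normal Control are a description too. Each gene was tested with edgeR's quasi-likelihood test on the counts, and "called" means an adjusted p under 0.05 over all 14421 genes tested. Values after ± are standard errors of the log2 fold change. The SKF and Vehicle groups are each set against the same 8 Normal Control libraries, so their calls are not independent of each other.

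In Vehicle brains 9 of the 15 receptors tested, from 23 in the family, and the ligand Tnf itself were called higher than in Normal Control brains. Of the 22 members, 13 rose and 2 fell, which is 68.2% called against 54% of all genes tested, where 26.9% were called higher and 27.1% lower. The median log2 fold change was 1.05 over the 22 members and -0.01 over all genes tested. In SKF brains 12 of the 22 rose and 2 fell against Normal Control, 63.6% called against 50.2% of all genes tested, with 25.5% higher and 24.7% lower. The median log2 fold change in that comparison was 0.75 over the members and -0.01 over all genes tested. Among the called members, 12 changed by at least 2-fold in Vehicle brains, where 11% of all genes tested did so, and 11 in SKF brains, where 10.1% did. For 8 members every SKF library lay above every Normal Control library, a separation that 11.5% of all genes tested showed. For 10 members every Vehicle library lay above every Normal Control library, against 11.6% of all genes tested. No tested member had all its SKF libraries, or all its Vehicle libraries, below every Normal Control library, a pattern of 7.11% and 7.5% of all genes tested. On the log2(TPM + 1) scale in limma, all genes split differently, into 4996 higher and 2296 lower in SKF brains and 5476 higher and 2408 lower in Vehicle brains, with medians of 0.09 and 0.11. TPM, as the authors deposited it, relates counts to gene length and to the library's total. In whole tissue, fewer cells of a type and less RNA per cell cannot be told apart.

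**Figure D1:**
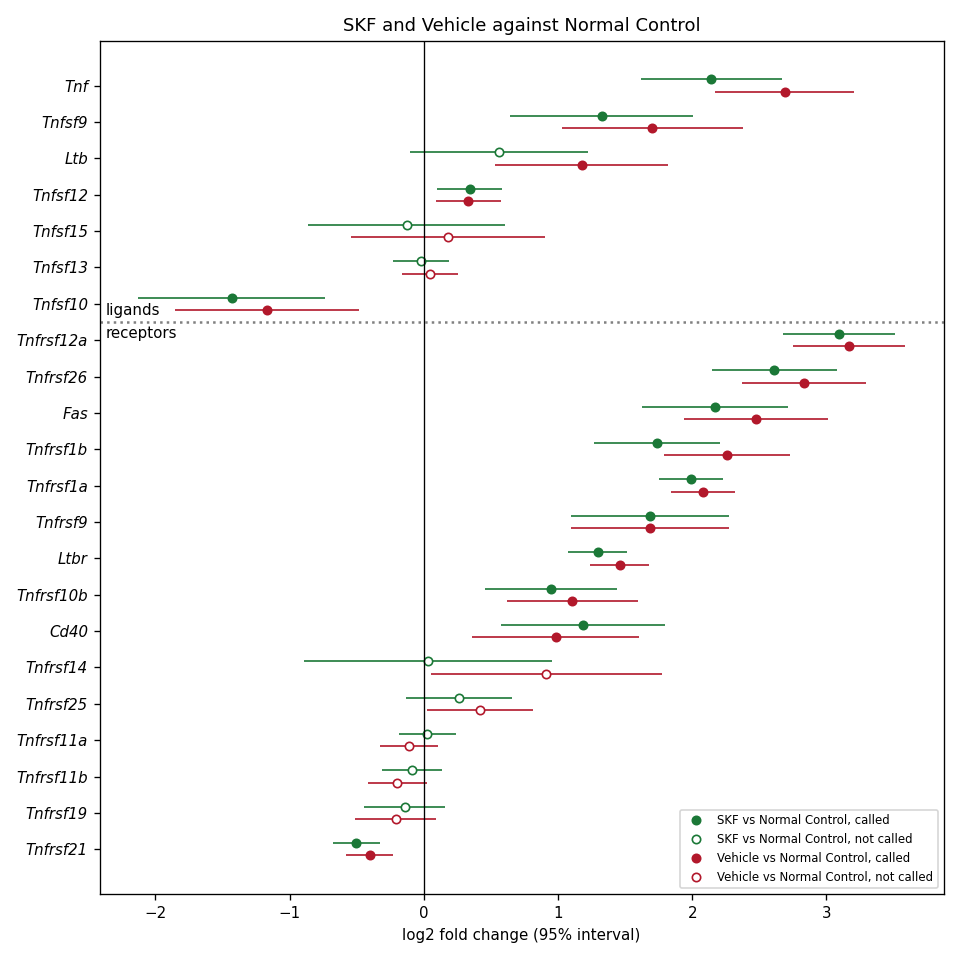
Log2 fold change with its 95% interval for the 22 tested members, SKF over Normal Control in green and Vehicle over Normal Control in red. Filled points were called by edgeR, and open points were not. Tnfrsf12a, Tnfrsf26, Tnf and Fas lie furthest to the right in both comparisons, and Tnfsf10 furthest to the left.

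Among the ligands, 3 of 7 rose and 1 fell in SKF brains, and 4 rose and 1 fell in Vehicle brains. That is 57.1% called in SKF brains, near the 50.2% of all genes tested, and 71.4% in Vehicle brains, against 54%. Tnf, the founding cytokine of the family, had 1.33 to 2.25 CPM in SKF libraries (median 1.79), 1.89 to 3.69 CPM in Vehicle libraries (median 2.62) and 0.0988 to 0.593 CPM in Normal Control libraries (median 0.444). The Normal Control range did not overlap either of the others, whereas the SKF and Vehicle ranges overlapped. Tnf rose against Normal Control by 2.14 ± 0.26 on the log2 scale in SKF brains (4.42-fold, edgeR adjusted p 7.86e-08) and by 2.69 ± 0.25 in Vehicle brains (6.44-fold, adjusted p 7.74e-10). With 1 to 6 counts in each Normal Control library, Tnf passed the filter through SKF and Vehicle libraries. Its p-values against Normal Control and the lack of overlap are therefore a description. Tnfsf9, the ligand of the costimulatory receptor 4-1BB, spanned 1.04 to 3.74 CPM in SKF libraries (median 1.71), 1.98 to 5.09 CPM in Vehicle libraries (median 2.64) and 0.191 to 1.30 CPM in Normal Control libraries (median 1.03). All Vehicle libraries were above all Normal Control libraries, and 7 of the 8 SKF libraries were. It rose by 1.33 ± 0.33 on the log2 scale in SKF brains (adjusted p 0.00154) and by 1.70 ± 0.33 in Vehicle brains (adjusted p 8.41e-05).

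Ltb encodes lymphotoxin beta, which forms a membrane complex with the product of Lta and signals through Ltbr. Its level was 0.749 to 1.68 CPM in SKF libraries (median 1.31), 0.955 to 3.18 CPM in Vehicle libraries (median 1.79) and 0.196 to 2.04 CPM in Normal Control libraries (median 0.776). The 3 ranges overlapped, and the highest Normal Control library exceeded every SKF library. The log2 fold change was 0.56 ± 0.32 in SKF brains, which was not called (adjusted p 0.153), and 1.18 ± 0.31 in Vehicle brains, which was (adjusted p 0.00243). Without Normal Control 5 the value for SKF brains was 0.87 and passed (adjusted p 0.0224), and it also passed in limma voom at 0.82 (adjusted p 0.0355) and on the log2(TPM + 1) scale at 0.55 (adjusted p 0.0365). Tnfsf12 encodes TWEAK, the ligand of the receptor Tnfrsf12a. Its level was 8.89 to 16.3 CPM in SKF libraries (median 12.5), 10.1 to 16.0 CPM in Vehicle libraries (median 12.1) and 7.45 to 11.7 CPM in Normal Control libraries (median 9.34). The ranges overlapped, with 6 SKF libraries and 4 Vehicle libraries above the highest Normal Control library. Tnfsf12 rose by 0.34 ± 0.12 on the log2 scale in SKF brains (adjusted p 0.0169) and by 0.33 ± 0.12 in Vehicle brains (adjusted p 0.0194). Without Vehicle 7 its Vehicle value was 0.27 and the call was lost (adjusted p 0.0551).

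Tnfsf10, which encodes the death ligand TRAIL, was the only tested ligand called lower. It had 0.183 to 1.43 CPM in SKF libraries (median 0.819), 0.204 to 1.78 CPM in Vehicle libraries (median 0.967) and 1.08 to 2.87 CPM in Normal Control libraries (median 2.28). Below the lowest Normal Control library lay 6 SKF and 5 Vehicle libraries. The log2 fold change was -1.43 ± 0.34 in SKF brains (0.371-fold, adjusted p 0.000936) and -1.17 ± 0.34 in Vehicle brains (0.445-fold, adjusted p 0.00442). Tnfsf10 had few counts, 70 over the SKF, 81 over the Vehicle and 181 over the Normal Control libraries, so these p-values are a description too. Tnfsf13, which encodes the B cell survival factor APRIL, and Tnfsf15, which encodes TL1A, were not called in either comparison. Their log2 fold changes were -0.02 and -0.13 in SKF brains, and 0.05 and 0.18 in Vehicle brains. Tnfsf12 and Tnfsf13 are adjacent genes, and how reads shared between neighbours were counted is not given in the sources used here.

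**Figure D2:**
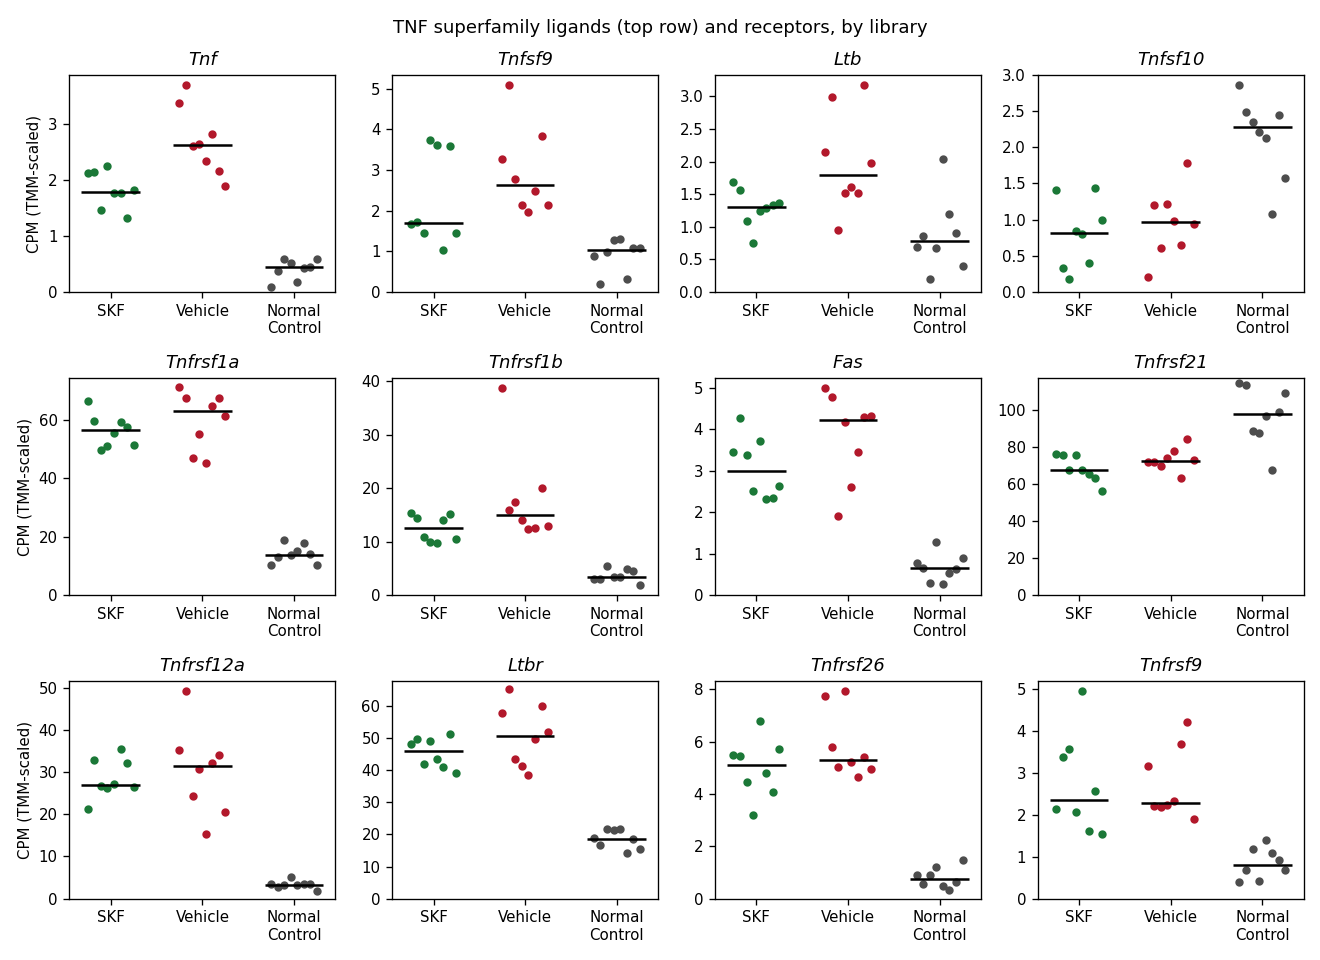
TMM-scaled CPM of 12 members in each library, on a linear axis that starts at 0, with SKF, Vehicle and Normal Control from left to right and a black line at each group's median. The top row holds ligands and the lower rows receptors. Tnf, Tnfrsf1a, Tnfrsf1b, Fas, Tnfrsf12a, Ltbr, Tnfrsf26 and Tnfrsf9 show no overlap of either group with Normal Control, and Vehicle 1 is the single high point at 38.7 CPM for Tnfrsf1b.

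Promoter sequence from RefSeq (assembly GRCr8) was matched to 15 of the 22 tested members. Cd40, Tnfrsf10b, Tnfrsf11a, Tnfrsf11b, Tnfrsf14, Tnfsf12 and Tnfsf9 had no entry. Each window runs from 250 bases before to 50 bases after the annotated start. Both strands were searched for TGANTCA, an AP-1-type motif that 7.33% of 33469 promoters of this length hold, and for TATAAA, which 14.2% hold. Among the 15, TGANTCA was found in Fas and Tnfrsf1b, and TATAAA in Tnf and Tnfsf15. A match describes letters in the window and is not a binding site, and the absence of one says nothing of the factor. The windows of the ligand and the receptor with the largest rises, Tnf and Tnfrsf12a, are printed with those of Ltb, which neighbours Tnf, and of Fas, with matches in capitals. They lie at chr20:3626435-3626734 on the plus strand (Tnf), chr20:3634005-3634304 on the minus strand (Ltb), chr1:241211905-241212204 on the plus strand (Fas) and chr10:13213599-13213898 on the minus strand (Tnfrsf12a), written 5′ to 3′ along the gene.
Tnf: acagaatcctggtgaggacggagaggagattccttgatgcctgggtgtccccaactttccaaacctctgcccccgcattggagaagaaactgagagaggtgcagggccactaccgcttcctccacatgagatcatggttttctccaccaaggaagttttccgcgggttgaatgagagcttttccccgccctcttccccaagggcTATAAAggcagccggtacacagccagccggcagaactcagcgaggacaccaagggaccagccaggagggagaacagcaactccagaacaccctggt
Ltb: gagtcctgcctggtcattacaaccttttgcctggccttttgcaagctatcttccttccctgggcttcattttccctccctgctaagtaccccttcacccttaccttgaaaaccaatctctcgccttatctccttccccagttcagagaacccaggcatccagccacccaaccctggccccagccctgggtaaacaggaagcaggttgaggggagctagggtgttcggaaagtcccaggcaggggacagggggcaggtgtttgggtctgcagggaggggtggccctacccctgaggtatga
Fas: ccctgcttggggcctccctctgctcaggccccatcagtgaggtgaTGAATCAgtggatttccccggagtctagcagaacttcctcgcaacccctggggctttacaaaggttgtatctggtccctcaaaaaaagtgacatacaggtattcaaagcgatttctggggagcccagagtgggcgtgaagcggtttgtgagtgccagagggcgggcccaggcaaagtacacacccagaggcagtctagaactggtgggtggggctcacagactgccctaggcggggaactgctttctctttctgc
Tnfrsf12a: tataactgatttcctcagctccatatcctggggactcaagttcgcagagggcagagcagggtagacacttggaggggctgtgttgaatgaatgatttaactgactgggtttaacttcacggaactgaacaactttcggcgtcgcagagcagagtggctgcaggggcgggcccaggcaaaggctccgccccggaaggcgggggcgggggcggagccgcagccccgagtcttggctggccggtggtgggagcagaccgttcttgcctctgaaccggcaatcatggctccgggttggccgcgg
In Tnf the capitals begin 46 bases before the start, and in Fas 205 bases before it. The Ltb and Tnfrsf12a windows hold neither motif.

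Of the 5 death-domain receptors, 3 rose and 1 fell in both SKF and Vehicle brains, where 50.2% and 54% of all genes tested were called. Tnfrsf1a, the main receptor for soluble TNF, had 49.6 to 66.4 CPM in SKF libraries (median 56.6), 45.2 to 71.3 CPM in Vehicle libraries (median 63.1) and 10.3 to 19.0 CPM in Normal Control libraries (median 13.9). Neither the SKF nor the Vehicle range reached down to that of Normal Control. Its log2 fold change was 1.99 ± 0.12 in SKF brains (3.97-fold, adjusted p 1.05e-13) and 2.08 ± 0.12 in Vehicle brains (4.22-fold, adjusted p 3.72e-14). Fas, the receptor that starts caspase activation when it binds Fas ligand, had 2.32 to 4.28 CPM in SKF libraries (median 3.00), 1.91 to 5.01 CPM in Vehicle libraries (median 4.24) and 0.278 to 1.28 CPM in Normal Control libraries (median 0.652). Both groups again lay wholly above Normal Control. Fas rose by 2.17 ± 0.26 on the log2 scale in SKF brains (4.5-fold, adjusted p 1.08e-07) and by 2.47 ± 0.26 in Vehicle brains (5.56-fold, adjusted p 8.20e-09).

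Tnfrsf10b, which encodes a death receptor for TRAIL, moved the opposite way to its ligand Tnfsf10. It rose by 0.94 ± 0.24 on the log2 scale in SKF brains (adjusted p 0.00172) and by 1.11 ± 0.24 in Vehicle brains (adjusted p 0.000306). Its median was 2.46 CPM in SKF, 2.88 CPM in Vehicle and 1.38 CPM in Normal Control libraries. Tnfrsf21, known as death receptor 6 and expressed by neurons, was the only tested receptor called lower. Its level was 56.4 to 76.4 CPM in SKF libraries (median 67.6), 63.5 to 84.6 CPM in Vehicle libraries (median 72.5) and 67.5 to 114 CPM in Normal Control libraries (median 97.7). All 8 SKF and all 8 Vehicle libraries were under the Normal Control median, although the ranges overlapped. The log2 fold change was -0.50 ± 0.09 in SKF brains (0.706-fold, adjusted p 1.77e-05) and -0.40 ± 0.09 in Vehicle brains (0.756-fold, adjusted p 0.000242). On the log2(TPM + 1) scale the Vehicle value was -0.26 (adjusted p 0.0402). Summed neuron markers were 2103 to 2956 CPM in SKF, 1642 to 2902 CPM in Vehicle and 2709 to 3467 CPM in Normal Control libraries, but the 4 genes did not move alike. Syt1 and Tubb3 were called lower in both comparisons and Snap25 in Vehicle brains (log2 fold change -0.31) but not in SKF brains (-0.21, adjusted p 0.0672). Rbfox3 was not called, at 0.15 in SKF and 0.06 in Vehicle brains. Oligodendrocyte markers fell too, with all 4 genes called lower in both comparisons and median summed levels of 8734 CPM in SKF, 8967 CPM in Vehicle and 16390 CPM in Normal Control libraries. The part of either cell type in the lower Tnfrsf21 was not tested. Tnfrsf25, the receptor for Tnfsf15, was not called, with log2 fold changes of 0.27 in SKF brains (adjusted p 0.263) and 0.42 in Vehicle brains (adjusted p 0.0679).

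The receptors without a death domain held the largest rise of the family. Of 9 that were tested, 6 rose and none fell in SKF brains, and the same counts were found in Vehicle brains. That is 66.7% called in each, against 50.2% of all genes tested in SKF and 54% in Vehicle brains. Tnfrsf12a encodes Fn14, the TWEAK receptor, whose transcript is known to be induced by growth factors and tissue damage. It had 21.3 to 35.7 CPM in SKF libraries (median 27.0), 15.4 to 49.3 CPM in Vehicle libraries (median 31.5) and 1.88 to 5.11 CPM in Normal Control libraries (median 3.30). Every library of both groups was above the Normal Control range. Tnfrsf12a had a log2 fold change of 3.10 ± 0.20 in SKF brains (8.55-fold, adjusted p 3.10e-12) and 3.17 ± 0.20 in Vehicle brains (9.00-fold, adjusted p 1.73e-12). Tnfrsf26 encodes a receptor described in mouse as a relative of the TRAIL receptors without a death domain. Its level was 3.18 to 6.81 CPM in SKF libraries (median 5.12), 4.66 to 7.93 CPM in Vehicle libraries (median 5.32) and 0.325 to 1.48 CPM in Normal Control libraries (median 0.758). The ranges of both groups cleared that of Normal Control. Tnfrsf26 rose by 2.61 ± 0.23 on the log2 scale in SKF brains (6.11-fold, adjusted p 2.22e-10) and by 2.83 ± 0.23 in Vehicle brains (7.12-fold, adjusted p 3.58e-11). Its annotated neighbour Tnfrsf22 is a related gene, so reads could have been split between them.

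Tnfrsf1b, the TNF receptor found mainly on immune and endothelial cells, had 9.81 to 15.4 CPM in SKF libraries (median 12.5), 12.4 to 38.7 CPM in Vehicle libraries (median 15.0) and 1.98 to 5.48 CPM in Normal Control libraries (median 3.46). The highest value, 38.7 CPM, belonged to Vehicle 1, and no library of either group fell into the Normal Control range. Its log2 fold change was 1.74 ± 0.23 in SKF brains (3.33-fold, adjusted p 5.68e-07) and 2.26 ± 0.23 in Vehicle brains (4.79-fold, adjusted p 5.83e-09). Tnfrsf9 encodes 4-1BB, the receptor for Tnfsf9. It had 1.54 to 4.95 CPM in SKF libraries (median 2.34), 1.89 to 4.21 CPM in Vehicle libraries (median 2.29) and 0.395 to 1.39 CPM in Normal Control libraries (median 0.80). Both groups were above Normal Control in every library. Tnfrsf9 rose by 1.68 ± 0.29 on the log2 scale in SKF brains (adjusted p 1.90e-05) and by 1.69 ± 0.29 in Vehicle brains (adjusted p 1.72e-05).

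Ltbr, the lymphotoxin beta receptor, had 39.2 to 51.4 CPM in SKF libraries (median 46.0), 38.7 to 65.3 CPM in Vehicle libraries (median 50.8) and 14.1 to 21.8 CPM in Normal Control libraries (median 18.7). The groups did not overlap with Normal Control. It rose by 1.30 ± 0.11 on the log2 scale in SKF brains (2.45-fold, adjusted p 8.73e-11) and by 1.46 ± 0.11 in Vehicle brains (2.75-fold, adjusted p 6.93e-12). Cd40, a receptor of antigen-presenting cells that is also known on activated microglia, spanned 1.15 to 2.62 CPM in SKF libraries (median 1.82), 0.842 to 2.55 CPM in Vehicle libraries (median 1.40) and 0.287 to 1.19 CPM in Normal Control libraries (median 0.902). Above the highest Normal Control library were 7 SKF and 6 Vehicle libraries. Its log2 fold change was 1.19 ± 0.30 in SKF brains (adjusted p 0.00163) and 0.98 ± 0.30 in Vehicle brains (adjusted p 0.0076).

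The receptors that were not called were Tnfrsf11a, which encodes RANK, Tnfrsf14, which encodes the entry mediator HVEM, and Tnfrsf19, which encodes TROY, a receptor known from neural tissue, together with the soluble decoy receptor Tnfrsf11b, or osteoprotegerin. The log2 fold changes of Tnfrsf11a, Tnfrsf19 and Tnfrsf11b lay between -0.14 and 0.03 in SKF brains and between -0.21 and -0.11 in Vehicle brains. Tnfrsf11b had 15.6 to 21.3 CPM in SKF libraries (median 16.8), 12.2 to 20.4 CPM in Vehicle libraries (median 14.8) and 14.5 to 22.5 CPM in Normal Control libraries (median 17.9). Its ranges overlapped throughout, and the log2 fold change was -0.09 ± 0.11 in SKF brains (adjusted p 0.521) and -0.20 ± 0.11 in Vehicle brains (adjusted p 0.128). Without Vehicle 4 the Vehicle value was -0.25 and passed (adjusted p 0.0486). Tnfrsf14 had 0.160 to 1.53 CPM in SKF libraries (median 0.461), 0.399 to 2.15 CPM in Vehicle libraries (median 1.24) and 0.217 to 1.2 CPM in Normal Control libraries (median 0.689). Its log2 fold change was 0.03 ± 0.45 in SKF brains (adjusted p 0.961) and 0.91 ± 0.42 in Vehicle brains (adjusted p 0.0684). The Vehicle value passed when Normal Control 5 or Vehicle 2, 3 or 4 was left out, at 1.01 to 1.11 with adjusted p of 0.0376 to 0.0499.

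Markers of neutrophils and of monocytes or macrophages were higher too, and whether these transcripts came from blood-derived cells was not tested. All 5 tested genes of 7 in the neutrophil list were called higher in both comparisons with Normal Control, and the summed level of the 7 was 25.3 to 46.5 CPM in SKF, 47.9 to 104 CPM in Vehicle and 3.24 to 6.04 CPM in Normal Control libraries. All 8 monocyte or macrophage markers were called higher too, with summed levels of 156 to 293 CPM in SKF, 207 to 308 CPM in Vehicle and 27.7 to 37.5 CPM in Normal Control libraries. Over all genes tested, 25.5% were called higher in SKF brains and 26.9% in Vehicle brains. A marker that passed the filter only through the groups where it is high was bound to differ, so calls of markers are a description. Summed microglial markers were 159 to 201 CPM in SKF, 154 to 213 CPM in Vehicle and 186 to 226 CPM in Normal Control libraries, and Siglech had no count in Normal Control. Within that list P2ry12 fell by 1.52 on the log2 scale in SKF and 1.49 in Vehicle brains, and Tmem119 fell by 1.65 in SKF and 1.51 in Vehicle brains. Cx3cr1, at 0.01 in SKF and 0.20 in Vehicle brains, and Sall1, at -0.17 in SKF and -0.07 in Vehicle brains, were not called. T cell markers summed to 2.62 to 6.64 CPM in SKF, 3.15 to 5.74 CPM in Vehicle and 1.30 to 3.36 CPM in Normal Control libraries over 6 genes. Of the 3 tested, Cd8a and Cd2 were called higher in both comparisons and Lck in neither. B cell markers, 5 in number, summed to 0.936 to 3.53 CPM in SKF, 1.59 to 5.20 CPM in Vehicle and 0.574 to 2.72 CPM in Normal Control libraries. The T cell and B cell sums overlapped with Normal Control, and Ighm, the only B cell marker tested, was called higher in both comparisons. No other marker of these 5 lists was at 0 in a whole group. Dendritic cell markers did not rise as a sum, with medians of 17.4 CPM in SKF, 17.3 CPM in Vehicle and 19.0 CPM in Normal Control libraries. Among them Ccr7 was called higher in both comparisons and Flt3 was not called. Zbtb46 was called lower in SKF brains alone (log2 fold change -0.51, adjusted p 0.0413). Markers of other resident cells moved. The 4 astrocyte markers summed to 4355 to 4895 CPM in SKF, 3435 to 5354 CPM in Vehicle and 1691 to 2254 CPM in Normal Control libraries, with no overlap of either group with Normal Control. Of these, Gfap, an intermediate filament of astrocytes, rose by 2.54 on the log2 scale in SKF and 2.46 in Vehicle brains, while Aldh1l1, Aqp4 and Slc1a3 were called lower in both comparisons. The endothelial markers Pecam1, at 0.49 in SKF and 0.65 in Vehicle brains, and Cdh5, at 0.44 in SKF and 0.64 in Vehicle brains, were called higher, and Tek was not called. The part of these cell types in the higher family members was not tested.

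Levels were compared between genes in TPM, as the authors deposited them. Normal Control brain was led by Tnfrsf21 at a median of 57.1 TPM, followed by Tnfsf13 at 27.3, Tnfrsf19 at 20.3, Tnfrsf11a at 17.8 and Ltbr at 17.6 TPM. In SKF and Vehicle brains Tnfrsf12a came first, at medians of 67.5 and 79.1 TPM, then Tnfrsf1a at 62.8 and 71.9, Ltbr at 46.9 and 51.6, and Tnfrsf21 at 42.3 and 45.2 TPM. Tnfrsf12a and Tnfrsf1a did not differ beyond their spread, with ranges of 54.6 to 94.2 and 53.8 to 77.0 TPM in SKF libraries, and 39.7 to 120 and 53.0 to 83.4 TPM in Vehicle libraries. The most abundant ligands were Tnfsf13, at 29.0 TPM in SKF, 29.8 TPM in Vehicle and 27.3 TPM in Normal Control, and Tnfsf12, at 19.6 TPM in SKF, 19.7 TPM in Vehicle and 14.0 TPM in Normal Control. Tnf stayed low on this scale, with medians of 2.90 TPM in SKF, 4.18 TPM in Vehicle and 0.631 TPM in Normal Control.

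Sums over the family differed more for receptors than for ligands. Receptor TPM summed to 264 to 353 in SKF libraries (median 319), 273 to 407 in Vehicle libraries (median 331) and 147 to 176 in Normal Control libraries (median 168). Ligand TPM summed to 52.2 to 79.2 in SKF libraries (median 67.3), 68.2 to 84.2 in Vehicle libraries (median 71.8) and 43.5 to 65.1 in Normal Control libraries (median 54.5). The ratio of Tnfrsf12a to its ligand Tnfsf12 in TPM was 2.44 to 6.07 in SKF, 2.25 to 5.76 in Vehicle and 0.303 to 0.721 in Normal Control libraries, so the receptor transcript exceeded the ligand transcript in SKF and Vehicle and was below it in Normal Control. The ratio of Tnfrsf1a to Tnfrsf1b in TPM overlapped among the groups, with medians of 11.0 in SKF, 9.36 in Vehicle and 9.39 in Normal Control libraries.

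**Figure D3:**
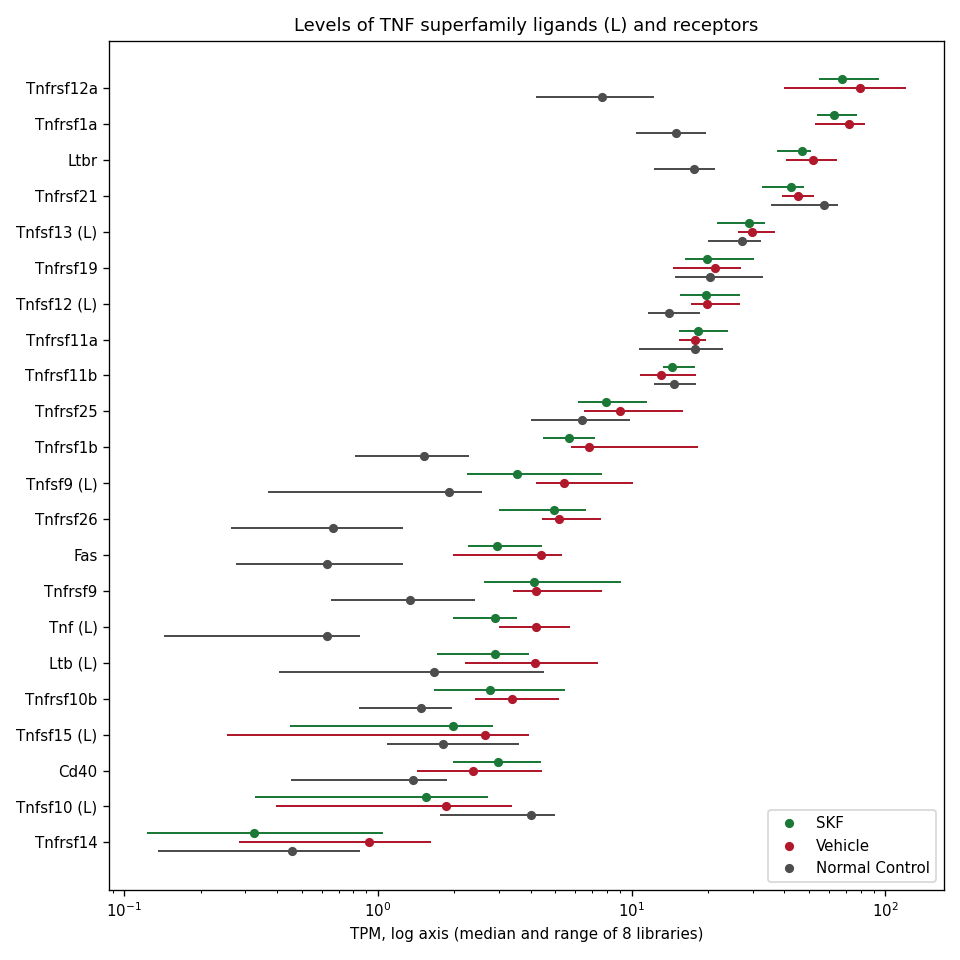
Median TPM (point) and range over 8 libraries (line) of the 22 tested members on a log axis, with SKF above Vehicle above Normal Control for each gene and ligands marked L. Genes are ordered by their Vehicle median, from Tnfrsf12a at 79.1 TPM down to Tnfrsf14 at 0.921 TPM.

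The 16 members under the filter had few reads. Fas ligand, encoded by Faslg, had 50 counts over the 8 SKF libraries, 39 over the Vehicle libraries and 26 over the Normal Control libraries. Tnfsf4, which encodes OX40 ligand, had 45 counts in SKF, 44 in Vehicle and 26 in Normal Control. Tnfsf8, which encodes CD30 ligand, had 57 in SKF, 61 in Vehicle and 43 in Normal Control. Receptors of lymphocyte costimulation were sparse as well. Tnfrsf4, which encodes OX40, had 30 counts in SKF, 53 in Vehicle and 13 in Normal Control, and Tnfrsf18, which encodes GITR, had 13 in SKF, 29 in Vehicle and 4 in Normal Control. Tnfrsf22 had 33 counts in SKF, 38 in Vehicle and 8 in Normal Control.

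Tnfsf14, which encodes LIGHT, had 16 counts in SKF and 12 in Vehicle, and Tnfsf18, the GITR ligand, had 19 in SKF and 21 in Vehicle. Neither had a count in any of the 8 Normal Control libraries, so no fold is given. Tnfrsf8, which encodes CD30, had 50 counts in SKF, 27 in Vehicle and 100 in Normal Control, and Cd70 had 25 in SKF, 11 in Vehicle and 38 in Normal Control. For both, the largest total was that of Normal Control. The lymphotoxin alpha gene Lta had 12 counts in SKF, 5 in Vehicle and 6 in Normal Control, and Cd27, the receptor for Cd70, had 15 in each group. Tnfsf11, Tnfrsf13b, Tnfrsf13c and Tnfrsf17 had 0 to 16 counts in any group. With no filter, edgeR tested 18951 genes and called 38.7% of them in SKF brains and 42.2% in Vehicle brains. Of these 16 members it called Tnfsf14 and Tnfsf18 higher in SKF brains. In Vehicle brains it called Tnfsf14, Tnfsf18, Tnfrsf4, Tnfrsf18 and Tnfrsf22 higher and Tnfrsf8 lower. These calls rest on few counts and are a description.

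Genes that carry the signal of these receptors were described from a list of 56, of which 54 were in the table and 53 were tested. In SKF brains 31 rose and 4 fell against Normal Control, and in Vehicle brains 37 rose and 3 fell. That is 66% called in SKF brains, where 50.2% of all genes tested were called, and 75.5% in Vehicle brains, where 54% were. The cell death group, which holds the kinases of necroptosis, caspases and their inhibitors, had 9 of 11 higher and 1 lower in SKF brains and 10 higher and none lower in Vehicle brains. Of 8 genes for NF-κB subunits and their inhibitors, 6 rose in SKF brains and 7 in Vehicle brains. All 4 genes of ligand shedding rose in both groups, among them Adam17, the protease that releases TNF. Of 10 ubiquitin regulators 3 rose and 1 fell in SKF brains, and 4 rose and 1 fell in Vehicle brains. Of 9 kinase genes 4 rose and 1 fell in SKF brains, and 5 rose and 1 fell in Vehicle brains. Of 11 adaptor genes 5 rose and 1 fell in SKF brains, and 7 rose and 1 fell in Vehicle brains.

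The largest rise of the list was in Ripk3, the kinase that commits cells to necroptosis. It had 5.57 to 10.7 CPM in SKF libraries (median 8.28), 5.93 to 12.8 CPM in Vehicle libraries (median 9.72) and 0.511 to 1.66 CPM in Normal Control libraries (median 0.889). No library of either group overlapped with Normal Control. Ripk3 had a log2 fold change of 3.05 ± 0.21 in SKF brains (adjusted p 3.37e-12) and 3.27 ± 0.21 in Vehicle brains (adjusted p 7.06e-13). Birc3, which encodes the ubiquitin ligase cIAP2 and is a known NF-κB target, rose by 2.48 ± 0.31 on the log2 scale in SKF brains and by 2.96 ± 0.31 in Vehicle brains. Its median was 5.46 CPM in SKF, 7.23 CPM in Vehicle and 0.899 CPM in Normal Control libraries. Ripk3 and Birc3 were low in Normal Control. Their tests against Normal Control, and the separation of Ripk3, are therefore a description too. Rhbdf2 encodes iRhom2, which brings the TNF-releasing protease to the cell surface in myeloid cells. It rose by 2.15 ± 0.23 in SKF brains and by 2.49 ± 0.23 in Vehicle brains, with medians of 9.54 CPM in SKF, 10.7 CPM in Vehicle and 2.07 CPM in Normal Control. Map3k8 encodes the kinase TPL2 and rose by 1.55 ± 0.22 in SKF brains and by 2.00 ± 0.21 in Vehicle brains on the log2 scale.

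The genes of the list that fell in Vehicle brains were Traf4, Cyld and Tbk1. Traf4, a TRAF adaptor, had a log2 fold change of -0.67 ± 0.11 in SKF brains (adjusted p 1.28e-05) and -0.57 ± 0.11 in Vehicle brains (adjusted p 9.90e-05). Cyld, a deubiquitinase that limits NF-κB signalling, was at -0.45 ± 0.13 in SKF brains (adjusted p 0.00398) and -0.49 ± 0.13 in Vehicle brains (adjusted p 0.0019). Tbk1, an IKK-related kinase, was at -0.24 ± 0.07 in SKF brains (adjusted p 0.00601) and -0.25 ± 0.07 in Vehicle brains (adjusted p 0.00432), and its Vehicle call was lost on the log2(TPM + 1) scale at -0.11 (adjusted p 0.191). In SKF brains Xiap, an inhibitor of caspases, was the fourth gene called lower, at -0.22 ± 0.08 (adjusted p 0.0242). Tradd, the adaptor of Tnfrsf1a, was called in Vehicle brains at 0.84 ± 0.16 (adjusted p 6.49e-05) and not in SKF brains at 0.30 ± 0.16 (adjusted p 0.13). Xiap and Tradd were chosen after their values were seen.

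**Figure D4:**
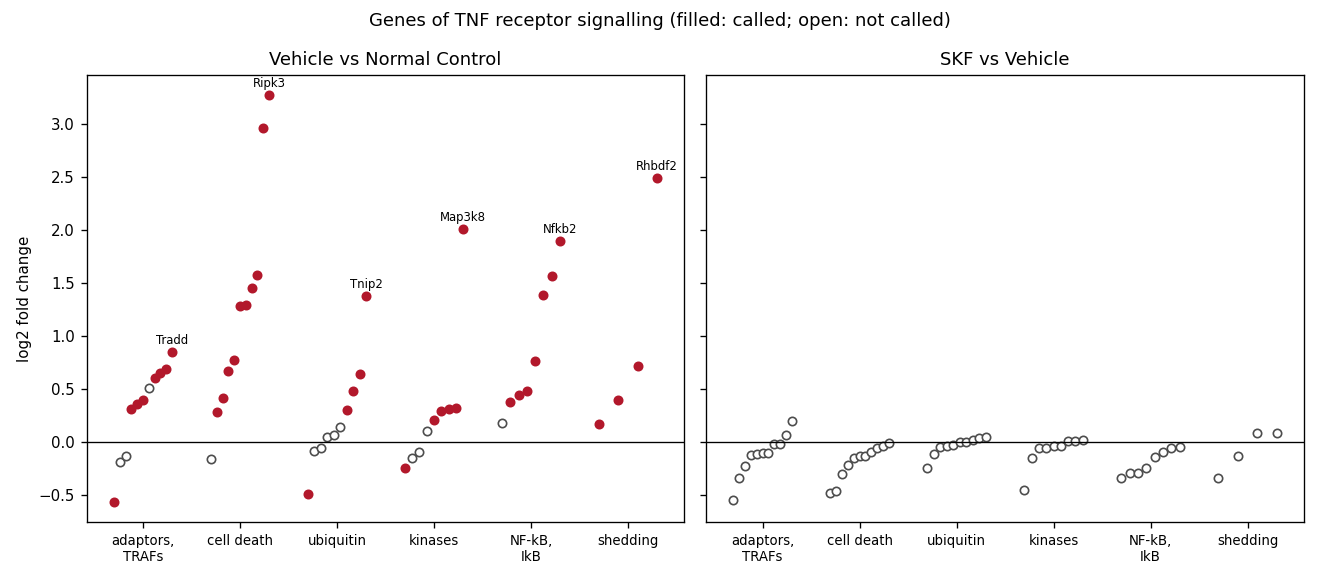
Log2 fold change of 53 genes of TNF receptor signalling in 6 functional groups, Vehicle over Normal Control on the left and SKF over Vehicle on the right. Filled points were called by edgeR and open points were not, and the highest gene of each group is named on the left. On the left 37 genes were called higher and 3 lower, and on the right none was called, with 42 of the 53 points below 0.

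The comparison of SKF with Vehicle addresses whether the D1-like agonist changed the response of the family to the wound. No member was called by edgeR, and none of the 14421 genes tested was called either (0%). The smallest adjusted p among the 22 members was 0.889. DESeq2 called 6 genes, none of them a member, and limma voom called none. At an unadjusted p under 0.05 edgeR found 4 members, all lower in SKF brains, against 4.96% of all genes tested, where 2.82% were lower and 2.14% higher. DESeq2 also found 4 members at that level and limma voom 3. Of the 14421 genes tested, 715 reached it in edgeR, 765 in DESeq2 and 875 in limma voom. Of the 22 members, 17 had a fitted change below 0, against 49.5% of all genes tested, and the median log2 fold change was -0.16 over the members and 0.00 over all genes. The 4 members were Tnf, Tnfrsf1b, Ltb and Tnfrsf14.

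Tnf had the smallest p of the family in this comparison. Its 8 SKF libraries, at 1.33 to 2.25 CPM, all lay below the Vehicle median of 2.62 CPM, and 5 of them lay below the lowest Vehicle library at 1.89 CPM. The log2 fold change was -0.54 ± 0.21 (0.686-fold, 95% interval of the log2 value -0.97 to -0.12), with an unadjusted p of 0.0145 and an adjusted p of 0.889 in edgeR. Its value ran from -0.55 to -0.44 under the other tools and settings, with an adjusted p of 0.611 or more. For Tnfrsf1b the log2 fold change was -0.52 ± 0.21 (95% interval -0.95 to -0.10, unadjusted p 0.0177, adjusted p 0.914), and 4 SKF libraries lay below the lowest Vehicle library. Without Vehicle 1 it was -0.27. Ltb was at -0.62 ± 0.30 (unadjusted p 0.0485, adjusted p 0.937), with all 8 SKF libraries below the Vehicle median of 1.79 CPM. Tnfrsf14 was at -0.88 ± 0.42 (95% interval -1.73 to -0.03, unadjusted p 0.0435, adjusted p 0.937), and 7 of 8 SKF libraries were below the Vehicle median. On the log2(TPM + 1) scale that value was -0.35.

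The count of 4 members depended on single libraries. It was 1 without Vehicle 1, and 2 without Vehicle 7, Vehicle 8, SKF 3, SKF 4, SKF 6 or SKF 8. It was 5 without Vehicle 5, and 3 or 4 without any other single library. The number among all genes tested moved as well. It was 715 with all libraries, 672 without Vehicle 1, 879 without Vehicle 5, 556 without SKF 4 and 927 without SKF 6. Vehicle 1 was the highest of its group at 104 CPM for the neutrophil list and 308 CPM for the monocyte or macrophage list. None of the other libraries that lowered the count was the highest of its group on either list. SKF 4 was the lowest of its group on both, at 25.3 CPM and 156 CPM. Ranks from the highest down, for neutrophil and then monocyte or macrophage list, were 3 and 2 for Vehicle 7 and 5 and 6 for Vehicle 8. They were 6 and 7 for SKF 3, 4 and 5 for SKF 6, and 5 and 3 for SKF 8. SKF 1 was the highest of its group on both lists, and without it the count stayed at 4. Summed neutrophil markers were 25.3 to 46.5 CPM in SKF and 47.9 to 104 CPM in Vehicle libraries. How many of all genes tested show such a gap between SKF and Vehicle is not given here. No neutrophil marker was called between SKF and Vehicle, although 4 of the 5 tested had an unadjusted p under 0.05, all lower in SKF brains. All 8 monocyte or macrophage markers had a fitted change below 0, none called, and 4 had an unadjusted p under 0.05 (Msr1 at -0.27, Cd14 at -0.32, Cd163 at -0.52 and Lyz2 at -0.31). Over all genes tested, 49.5% had a fitted change below 0 and 4.96% an unadjusted p under 0.05 in edgeR. The endothelial marker Cdh5 was at -0.20, with an unadjusted p of 0.0293 and an adjusted p of 0.937. The part of these cells in the lower values of Tnf, Tnfrsf1b, Ltb and Tnfrsf14 was not tested.

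Several receptors with large rises after the wound had narrow intervals around 0 for SKF against Vehicle. The 95% interval of the log2 fold change was -0.31 to 0.13 for Tnfrsf1a, -0.37 to 0.05 for Ltbr and -0.43 to 0.28 for Tnfrsf12a. For Tnfrsf21 it was -0.27 to 0.08, and for Tnfrsf11b, the decoy receptor, -0.11 to 0.33. Wider intervals were those of Fas, at -0.77 to 0.15 around a value of -0.31, of Tnfsf10, at -1.01 to 0.48, and of Cd40, at -0.37 to 0.77. The ligand Tnfsf12 was at 0.01 ± 0.12 and Tnfsf9 at -0.38 ± 0.30. A value that misses the threshold does not show that the groups were alike.

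**Figure D5:**
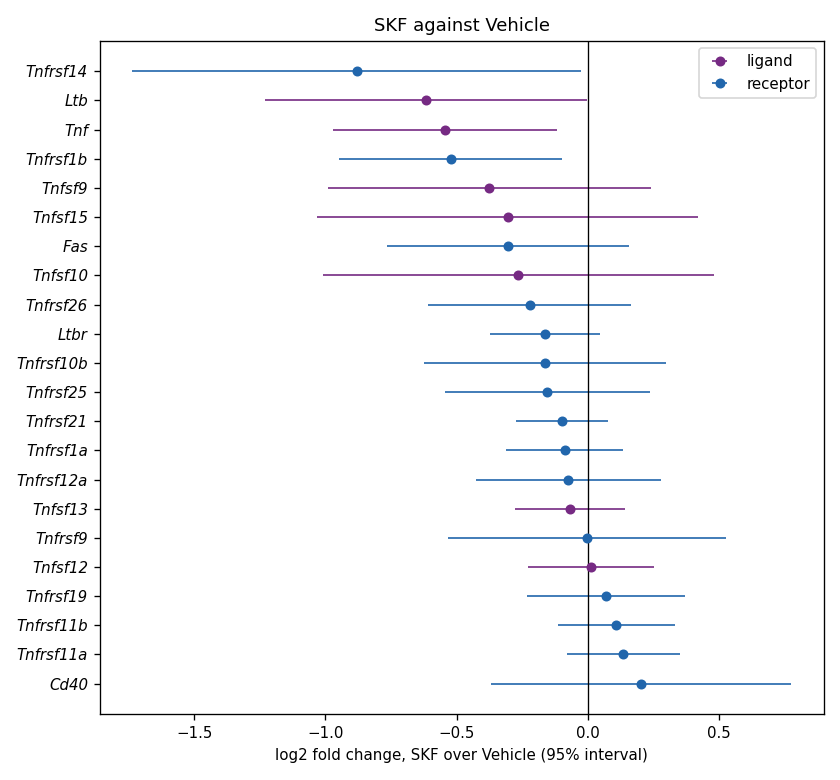
Log2 fold change of SKF over Vehicle with its 95% interval for the 22 tested members, ligands in purple and receptors in blue, ordered by value. Of the 22 points 17 lie below 0, and the intervals of Tnfrsf14, Ltb, Tnf and Tnfrsf1b are those that do not reach 0. None of the 22 was called after adjustment.

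Among the 53 signalling genes none was called between SKF and Vehicle, by edgeR, DESeq2 or limma voom. At an unadjusted p under 0.05 edgeR found 7, all lower in SKF brains, against 4.96% of all genes tested, where 2.82% were lower. Of the 53, 42 had a fitted change below 0, as did 49.5% of all genes tested. All 11 cell death genes and all 8 genes of the NF-κB group were among those below 0. So were 9 of 11 adaptor genes, 6 of 10 ubiquitin regulators, 6 of 9 kinase genes and 2 of 4 shedding genes. The smallest p were those of Nfkbie, an inhibitor of NF-κB, at -0.30 ± 0.08 (unadjusted p 0.00102, adjusted p 0.656), and Tradd, at -0.55 ± 0.16 (unadjusted p 0.00167, adjusted p 0.704). Both were chosen after their values were seen. Nfkbie had medians of 17.8 CPM in SKF, 21.1 CPM in Vehicle and 16.8 CPM in Normal Control libraries, and Tradd had medians of 4.73 CPM in SKF, 6.68 CPM in Vehicle and 3.89 CPM in Normal Control libraries.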

How the data were processed

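Libraries of 24 rat brain samples were made from poly(A)-selected RNA with a kit that keeps strand, as the labels state. Whole-number read counts per gene and, for the same genes, TPM are the 2 tables the authors deposited. The genome build was mRatBN7.2 per the submitters' processing notes, and which aligner and counter were used is not given in the sources used here.

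Groups came from the sample titles. The 24 libraries entered 1 robust quasi-likelihood fit in edgeR 4.0.16 (R 4.3.3) with 21 residual degrees of freedom, after TMM scaling and a filter on low counts (filterByExpr, by group). P-values were adjusted by the Benjamini-Hochberg method across 14421 tested genes and called under 0.05. They come from edgeR where no tool is named. Total counts were 8911339 to 12383368 per library and the biological coefficient of variation was 16.2%, which sets the precision of a fold change. The procedure was tested on simulated data. Alternatives were DESeq2 1.42.0, limma 3.58.1 (voom with sample weights, and log2 TPM with pseudocounts of 1 and 0.1), other size factors and filters, the replicate number as a block, and leaving out libraries.

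The members, the lists of signalling genes and markers, and the tests were chosen with earlier results of these data known. Full values are given for the 8 largest rises and up to 6 largest falls of Vehicle against Normal Control, the 6 smallest p of SKF against Vehicle, and a fixed set of members (Tnf, Tnfrsf1a, Tnfrsf1b, Fas, Faslg, Tnfrsf12a, Tnfsf12, Cd40, Ltbr, Tnfrsf11b, Tnfsf10, Tnfrsf21). For signalling genes the 4 largest rises and up to 4 largest falls are given.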

Additional observations from a re-analysis of the deposited data

Results flagged for a closer look

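Of 66 groups of 8 libraries, 3 for each tested member, 2 held a library whose gap to its nearest neighbour as a share of the group's range exceeded the 95% critical value of Dixon's test for 8 samples. Chance marks about 1 group in 20. Tnfrsf1b was at 38.7 CPM in Vehicle 1, apart from the other 7 Vehicle libraries. Tnfsf15 was at 1.73 CPM in Normal Control 6, apart from the other 7 Normal Control libraries.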

How the results depend on the processing

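Counts of called members stayed within 1.5 times of 14 for SKF against Normal Control and of 15 for Vehicle against Normal Control under all alternatives but 1, with 23 called for Vehicle on the log2(TPM + 1) scale with no filter (20 higher, 3 lower of 38). For SKF against Vehicle, 0 members were called under every alternative run. Called signalling genes numbered 33 to 37 for SKF against Normal Control, 38 to 44 for Vehicle against Normal Control and 0 for SKF against Vehicle. Over all results and alternatives, 1876 values kept their direction and their side of the threshold, 10 newly passed it, 4 no longer passed and 32 changed sign. Those that changed sign had not been called. Tnfrsf14 for SKF against Normal Control was -0.12 in limma voom, -0.056 with the replicate block, -0.16 without Normal Control 4 and 6, and -0.25 to 0.22 with 1 library left out. Tnfrsf11b for SKF against Normal Control was 0.020 on the log2(TPM + 1) scale, with or without the filter, and 0.022 on the log2(TPM + 0.1) scale. For SKF against Vehicle, limma voom gave 0.034 for Tnfrsf12a and 0.011 for Tnfrsf9, and Tnfsf12 was -0.014 on the log2(TPM + 1) scale, with or without the filter, and -0.015 on the log2(TPM + 0.1) scale. With 1 library left out these ran from -0.17 to 0.062 for Tnfrsf12a, -0.18 to 0.11 for Tnfrsf9 and -0.054 to 0.075 for Tnfsf12. The cause was not tested. On the log2(TPM + 1) scale the pseudocount by construction understates genes of low level, and Tnf in Vehicle brains was 1.73 and Fas 1.58.

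The labels repeat replicate numbers in each group without saying that they pair samples, and the correlation of same-numbered deviations was at most 0.078, with no library closest to its own number. With the replicate block, edgeR called 14 members for SKF against Normal Control, 16 for Vehicle against Normal Control and 0 for SKF against Vehicle.

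Low counts limit what can be said of the 16 members under the filter. The printed 95% intervals are not adjusted for the number of genes tested.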
